A study of Mus musculus with 6 samples.

Results

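The p53 pathway was examined through 10 genes in donor hematopoietic stem and progenitor cells (HSPCs) after bone marrow transplantation. The genes were Trp53, which encodes p53, and 9 genes that p53 is known to activate: Mdm2, Ccng1, Bbc3, Pmaip1, Sesn2, Phlda3, Zmat3, Trp53inp1 and Gadd45a. They were named as a list, not chosen by a threshold on the values, but with earlier results of these data known. All 10 were found among the 24965 genes of the table. None of the 10 differed between the genotypes at an adjusted p under 0.05, beside 6.46% of all genes tested. In Hemgn-/- HSPCs the values of Trp53 and Sesn2 were higher than in every WT library and those of Ccng1 and Gadd45a were lower, while Mdm2, Bbc3, Pmaip1, Phlda3, Zmat3 and Trp53inp1 overlapped between the genotypes. These 4 of 10 genes without overlap stand beside 27.4% of all genes tested.

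RNA-seq of 6 libraries was used, 3 of WT and 3 of Hemgn-/- donor cells. Donors were C57BL/6 mice (CD45.2) of either sex, 8 to 10 weeks old. They were WT littermates or carried a Hemgn mutation made with zinc finger nucleases and present in the whole body. By the study, the mutation removes a few bases of the coding sequence, not the whole gene, and brings in a premature stop codon. Their bone marrow was injected into CD45.1 recipients irradiated with 9 Gy in a split dose, and donor cells were sorted from the recipients 6 h later. Donor cells themselves were not irradiated in either group, and both groups had gone through the same transfer, so the comparison is of genotype after transplantation and not of before against after. The sort is given as lineage-negative, Sca-1-positive, c-Kit-positive cells in the study's methods, whereas the sample labels name no c-Kit. Injection was into the retro-orbital sinus by the labels and into the tail vein by the design text.

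p53 is a transcription factor that is held low because MDM2, the product of one of its own targets, binds it and marks it for degradation. DNA damage and other stresses break that hold, mainly by protein modification, and stabilized p53 then activates genes for cell cycle arrest, DNA repair, metabolism and cell death. In blood-forming cells p53 is known for its role in stem cell quiescence and in the death of progenitors after irradiation. Its activity is controlled largely at the protein level, which RNA does not measure.

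The known p53 response element is a pair of decamers, each of 3 purines, C, 2 bases that are A or T, G and 3 pyrimidines. The promoter windows of RefSeq (GRCm38.p6, 250 bases before to 50 after the start) were searched for such pairs, with the C and the G of each decamer required, at most 3 other mismatches in all and at most 13 bases between the decamers. The element reads alike on both strands. Of the 10 genes, 7 had a window, and 4 of the 7 held a pair. At this setting 17.4% of the 27025 genes with a window held one, falling to 4.71% at up to 2 mismatches, 0.718% at up to 1 and 0.0740% with none. The matches are shown to let the promoters be read beside the values, with Cdkn1a, the p21 cell cycle inhibitor and best known p53 target, beside them. Capitals mark the 2 decamers of the pair with the fewest mismatches over all windows of the gene, and with the shorter gap within a window. Other pairs are left unmarked. In Cdkn1a the bases right after the second marked decamer form another decamer with 1 mismatch, so a pair without a gap lies there too. Each line runs 5′ to 3′ on the strand of the gene.
Ccng1, chr11:40755432-40755511, minus strand, 1 mismatch: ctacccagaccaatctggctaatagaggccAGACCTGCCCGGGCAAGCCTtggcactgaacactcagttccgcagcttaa
Gadd45a, chr6:67037408-67037493, minus strand, 2 mismatches: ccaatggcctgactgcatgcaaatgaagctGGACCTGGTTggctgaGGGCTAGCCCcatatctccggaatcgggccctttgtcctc
Trp53, chr11:69580254-69580333, plus strand, 3 mismatches: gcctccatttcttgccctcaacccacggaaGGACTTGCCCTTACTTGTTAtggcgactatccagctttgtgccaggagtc
Bbc3, chr7:16309456-16309535, plus strand, 3 mismatches: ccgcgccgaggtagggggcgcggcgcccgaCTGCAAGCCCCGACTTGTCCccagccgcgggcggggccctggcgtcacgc
Cdkn1a, chr17:29090876-29090967, plus strand, 0 mismatches: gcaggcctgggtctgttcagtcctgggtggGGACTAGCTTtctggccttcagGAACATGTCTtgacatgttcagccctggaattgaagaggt
Relative to the start of the window used, the pair lay from -195 to -176 in Ccng1, -56 to -31 in Gadd45a, -75 to -56 in Trp53, -97 to -78 in Bbc3 and -73 to -42 in Cdkn1a. Bbc3 had 3 windows and Cdkn1a 2. The Bbc3 start used lies inside the gene's annotated span, which begins at chr7:16308393, so that pair is not upstream of the whole gene. The Cdkn1a start used is at the far 5′ end of its annotated span, which begins at chr17:29090976. Where the Cdkn1a pair lies relative to the start of the other window is not given here. No pair was found in the windows of Mdm2, Sesn2 and Phlda3, which says only that these letters are not in that window. A match is not a bound site, and no binding was measured here.

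The values are FPKM (fragments per kilobase of exon, relative to the library's fragment total), as deposited by the authors. Differences were tested with limma on log2(FPKM + 1) over the 13739 genes with more than 1 FPKM in at least 1 library, so a fold change here is on the FPKM + 1 scale and understates that of low genes. The adjustment was Benjamini-Hochberg's, across every one of these genes, tests were two-sided, and n = 3 libraries per genotype throughout. The recovered depth, the total that FPKM was scaled to, was 23668013 to 28897355 fragments per library, which makes 1 fragment on 1 kb worth 0.0346 to 0.0423 FPKM. Fragments recovered on the listed genes came to more, 25213526 to 30812337 per library, and the reason was not tested. Hemgn itself read 5.64, 2.96 and 4.68 FPKM in WT replicates 1 to 3 and 0.755, 0.913 and 1.60 FPKM in Hemgn-/- replicates 1 to 3. The groups did not overlap (log2 difference -1.37 ± 0.23 SE, limma adjusted p = 0.0114, 0.00737 to 0.0613 over 15 alternatives, of which 13 kept the call and the filter-free fit, at 0.0613, and the one without WT replicate 3, at 0.0503, did not), so the labels follow the targeted gene, which still had 52 to 116 fragments in Hemgn-/- libraries.

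The markers of the labelled cell type were low in all 6 libraries. The 12 HSPC markers summed to 44.8 to 49.0 FPKM in WT and 54.6 to 64.0 FPKM in Hemgn-/- libraries, with Kit between 5.50 and 7.24 FPKM and Mecom, a stem cell regulator, under 1 FPKM throughout. Of the 11 tested, 2 were higher at an adjusted p under 0.05, Cd34 and Cd48. The 8 neutrophil markers summed to 75350 to 81244 FPKM in WT and 49590 to 55034 FPKM in Hemgn-/- libraries, which was 20.3 to 21.7% and 14.4 to 15.4% of all FPKM, with 3 of 8 lower at an adjusted p under 0.05. The 8 B cell markers summed to 1165 to 1226 and 1384 to 1558 FPKM (3 of 8 higher), and the 8 erythroid markers to 465 to 551 and 42.7 to 61.7 FPKM (3 of 8 lower). Eosinophil and basophil markers summed to 663 to 775 and 483 to 520 FPKM (3 of 8 lower), T and NK cell markers to 144 to 155 and 175 to 190 FPKM (3 of 8 higher), plasmacytoid dendritic cell markers to 185 to 213 and 226 to 265 FPKM (2 of 7 higher), macrophage and monocyte markers to 578 to 600 and 497 to 599 FPKM (2 higher and 2 lower of 8) and endothelial markers to 16.5 to 17.5 and 18.0 to 21.2 FPKM (none of the 5 tested called). No marker of these lists was at 0 in all libraries. The libraries are therefore called HSPCs here only as labelled. All of these sums but that of the macrophage and monocyte list were without overlap between genotypes and stand beside every p53 gene below, and their part in those results was not tested. In such bulk RNA, fewer cells of a type and less RNA per cell cannot be told apart.

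The level of the 10 genes in these cells covered a wide range. Ccng1 was highest, with a mean of 87.7 FPKM over the 6 libraries, and exceeded 96.1% of all genes tested. Mdm2 followed at 56.1 FPKM, and its lowest library was above the highest library of every gene below it except Gadd45a. Sesn2 (38.4), Gadd45a (37.7), Trp53 (35.4) and Pmaip1 (31.6 FPKM) came next, and each overlapped its neighbour in this order. Trp53inp1 (21.4 FPKM) and Bbc3 (6.21 FPKM) each stood apart from both neighbours. Phlda3 (1.81 FPKM) and Zmat3 (0.950 FPKM) were lowest and overlapped each other. FPKM is a value per length, here that of all annotated exons of a gene, from 1559 bases in Phlda3 to 11435 in Zmat3. A gene whose expressed transcripts are shorter than that reads lower, so this order is only approximate.

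**Figure D1:**
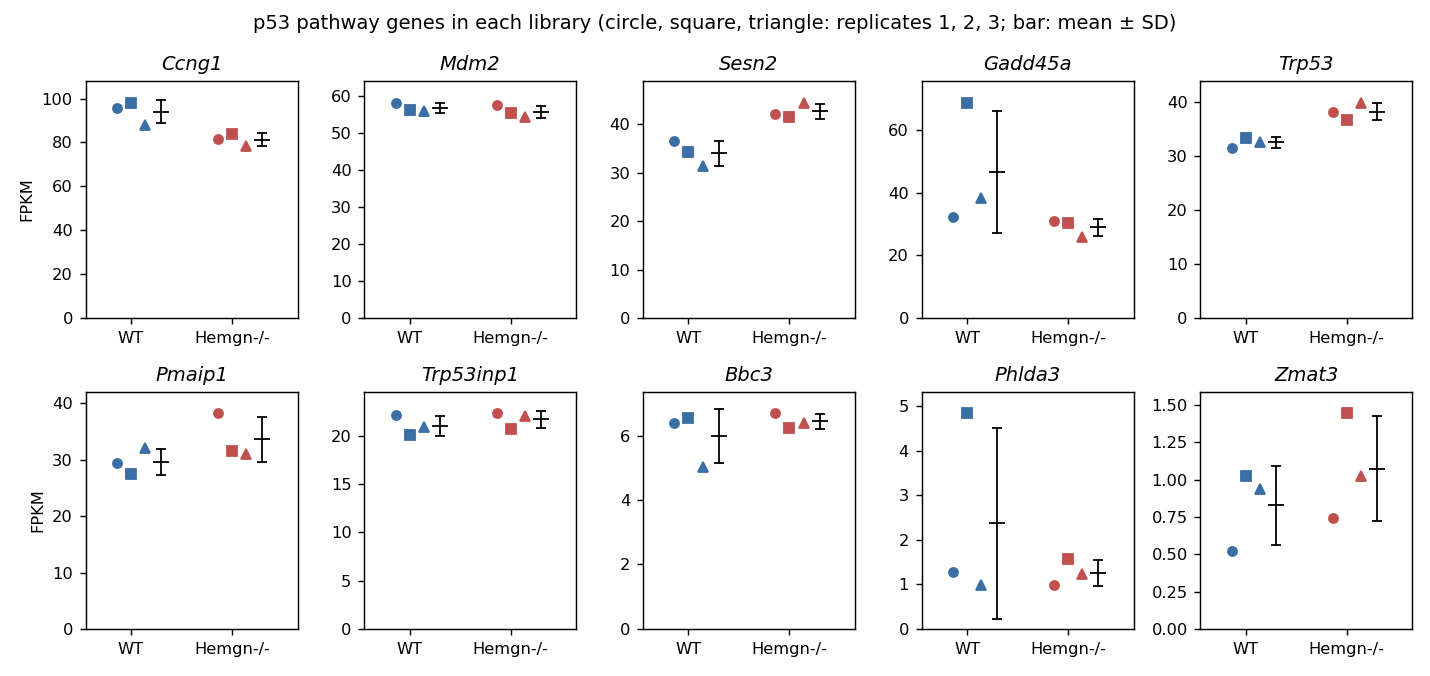
FPKM (vertical axes, each from 0) of the 10 p53 pathway genes in WT (blue) and Hemgn-/- (red) libraries, with circles, squares and triangles for replicates 1, 2 and 3 and a bar for the mean ± SD of 3 libraries. All 3 Hemgn-/- points lie above the WT points for Sesn2 and Trp53 and below them for Ccng1 and Gadd45a, and WT replicate 2 stands far above the rest for Gadd45a and Phlda3.

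Trp53 (ENSMUSG00000059552, chr11:69580359-69591873, plus strand, GRCm38) read 31.5, 33.4 and 32.7 FPKM in WT replicates 1 to 3 and 38.1, 36.7 and 39.9 FPKM in Hemgn-/- replicates 1 to 3. Every Hemgn-/- value was above every WT value, and the spread within a genotype was small (CV of 2.92% and 4.25%). The mean was 32.5 ± 0.949 FPKM in WT and 38.2 ± 1.63 FPKM in Hemgn-/- libraries (SD, n = 3), a log2 difference of 0.23 with a 95% interval of 0.05 to 0.40. This is a 1.17-fold difference and did not pass the test over all genes (limma adjusted p = 0.127). Rescaling all libraries to the same FPKM total brought it past the threshold, with an adjusted p of 0.0457, the lowest of 15 alternatives in limma (0.0457 to 0.408). The log2 difference shrank to 0.13 with median-ratio scaling and 0.15 with quantile normalization (limma adjusted p = 0.408 and 0.339).

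Mdm2 and Ccng1 both act back on p53. Mdm2 (ENSMUSG00000020184, chr10:117688875-117710758, minus strand) encodes the ubiquitin ligase that degrades p53, and its transcript is widely used as a readout of p53 activity. It read 58.1, 56.0 and 55.8 FPKM in WT and 57.5, 55.3 and 54.1 FPKM in Hemgn-/- libraries. The genotypes overlapped, and replicates were close (CV of 2.27% and 3.04%). The log2 difference was -0.03 with a 95% interval of -0.18 to 0.13, which spans folds of 0.882 to 1.09 (limma adjusted p = 0.866). Of the 10 genes Mdm2 had the smallest difference in size, and its sign turned positive (0.06) with the same FPKM total.

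Ccng1 (ENSMUSG00000020326, chr11:40748552-40755311, minus strand) encodes cyclin G1, which recruits a phosphatase to MDM2 and lowers p53. It read 95.9, 98.2 and 88.1 FPKM in WT and 81.7, 83.9 and 78.4 FPKM in Hemgn-/- libraries. All Hemgn-/- values were below all WT values. The log2 difference was -0.21 (95% interval -0.37 to -0.04), a fold of 0.867, and did not pass (limma adjusted p = 0.139). It passed under 1 of 15 alternatives, median-ratio scaling, with an adjusted p of 0.0490 in a range of 0.0490 to 0.351.

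Bbc3 and Pmaip1 encode PUMA and NOXA, BH3-only proteins through which p53 triggers cell death at the mitochondrion. Bbc3 (ENSMUSG00000002083, chr7:16308393-16318205, plus strand) read 6.39, 6.55 and 5.01 FPKM in WT and 6.69, 6.24 and 6.40 FPKM in Hemgn-/- libraries. The 3 Hemgn-/- values fell close together, and WT replicate 3 was the lowest of the 6. With a log2 difference of 0.10, Bbc3 did not pass (95% interval -0.18 to 0.38, limma adjusted p = 0.683).

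Pmaip1 (ENSMUSG00000024521, chr18:66458533-66465565, plus strand) read 29.4, 27.5 and 32.1 FPKM in WT and 38.2, 31.6 and 31.0 FPKM in Hemgn-/- libraries. The genotypes overlapped through WT replicate 3, and Hemgn-/- replicate 1 was the highest. Pmaip1 likewise did not pass, at a log2 difference of 0.17 (95% interval -0.07 to 0.41, limma adjusted p = 0.399).

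Trp53inp1, Phlda3 and Zmat3 modulate the outcome of p53 activation. Trp53inp1 (ENSMUSG00000028211, chr4:11156431-11174379, plus strand) encodes a stress protein that enhances p53 phosphorylation and takes part in autophagy. It read 22.2, 20.1 and 20.9 FPKM in WT and 22.4, 20.8 and 22.1 FPKM in Hemgn-/- libraries. The values interleaved, and the log2 difference was 0.04 (95% interval -0.15 to 0.23, limma adjusted p = 0.810). Its sign was negative with median-ratio scaling (-0.05) and with quantile normalization (-0.03).

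Phlda3 (ENSMUSG00000041801, chr1:135766119-135769136, plus strand) encodes a PH-domain protein that competes with AKT for membrane lipids. It read 1.27, 4.84 and 0.995 FPKM in WT and 0.982, 1.57 and 1.22 FPKM in Hemgn-/- libraries. WT replicate 2 alone was high, with 193 fragments against 42 to 64 in the other 5 libraries. The log2 difference of -0.41 (95% interval -1.26 to 0.44, limma adjusted p = 0.571) rested on that library and was 0.08 without it.

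Zmat3 (ENSMUSG00000027663, chr3:32334792-32366014, minus strand) encodes an RNA-binding zinc finger protein that regulates splicing and has tumor suppressor activity. It read 0.525, 1.02 and 0.937 FPKM in WT and 0.746, 1.44 and 1.03 FPKM in Hemgn-/- libraries, from 142 to 432 fragments. The genotypes overlapped, and the log2 difference was 0.18 (95% interval -0.33 to 0.69, limma adjusted p = 0.687). With Gadd45a, Phlda3 and Zmat3 had the widest intervals of the 10 genes, so a modest difference would not have been detectable in them.

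Sesn2 and Gadd45a belong to the stress arm of the pathway. Sesn2 (ENSMUSG00000028893, chr4:132492032-132510501, minus strand) encodes sestrin 2, which restrains mTORC1 and oxidative stress and is also a target of the amino acid response. It read 36.5, 34.3 and 31.4 FPKM in WT and 42.1, 41.6 and 44.5 FPKM in Hemgn-/- libraries. All Hemgn-/- values exceeded all WT values, with means of 34.1 ± 2.56 and 42.7 ± 1.56 FPKM (SD, n = 3). The log2 difference was 0.32 (95% interval 0.13 to 0.51), or 1.25-fold, and the adjusted p was the lowest of the 10 genes but did not pass (limma adjusted p = 0.0592). It passed under 3 of 15 alternatives, a mean FPKM of at least 1, the same FPKM total and limma voom on recovered fragments, and the adjusted p ranged from 0.0249 to 0.202. The gene shares its span with Gm12981 on the same strand (3.50 FPKM), and how fragments common to both were counted is not given in the sources used here.

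Gadd45a (ENSMUSG00000036390, chr6:67035096-67037457, minus strand) encodes a growth arrest and DNA damage protein that activates stress kinases. It read 32.4, 68.7 and 38.4 FPKM in WT and 30.9, 30.2 and 25.9 FPKM in Hemgn-/- libraries. Every Hemgn-/- value was below every WT value, although WT replicate 1 was only just above the highest Hemgn-/- library and WT replicate 2 was far above all others (CV of 41.9% in WT and 9.40% in Hemgn-/-). The log2 difference was -0.59 (95% interval -1.13 to -0.05), a fold of 0.663, and did not pass the test over all genes (limma adjusted p = 0.194). Without WT replicate 2 it was -0.28. E230016M11Rik overlaps the gene on the opposite strand (0.747 FPKM), and whether counting used strand is not given in the sources used here.

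WT replicate 2 stood apart in a few p53 genes. It was above all other libraries by more than 0.75 on the log2 scale in 148 genes, or 1.08% of the 13739 tested, against 51 to 83 genes in each other library. The 148 held 4 of the 94 p53 genes tested: Gadd45a, Phlda3, Plk3 (48.2 against 19.2 to 22.3 FPKM), a stress-activated polo-like kinase, and Ppm1d (14.7 against 1.67 to 5.87 FPKM), the WIP1 phosphatase that switches p53 signaling off. In each other library, 0 genes of the p53 lists were above the rest by that margin. This rule and its margin were set after the data were seen, with the values of Gadd45a and Phlda3 in view, and the 4 genes are given as a description.

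As a group, 0 of the 10 genes passed an adjusted p under 0.05 in limma, against 6.46% of all genes tested (4.37% higher and 2.09% lower in Hemgn-/- libraries). At an unadjusted p under 0.05 there were 4, of which 2 were higher and 2 lower, against 21.4% of all genes (2057 higher and 887 lower). By adjusted p, limma voom called 1, Sesn2. Only Gadd45a met both an unadjusted p under 0.05 and 1.5-fold, as did 6.83% of all genes. The genotypes did not overlap for 4 genes, with 2 above and 2 below, against 27.4% of all genes (2634 above and 1124 below). The log2 differences were above 0 in 6 and below 0 in 4, against 8653 and 5086 of all genes tested. Their median was 0.07, beside a median of 0.09 over all genes tested.

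**Figure D2:**
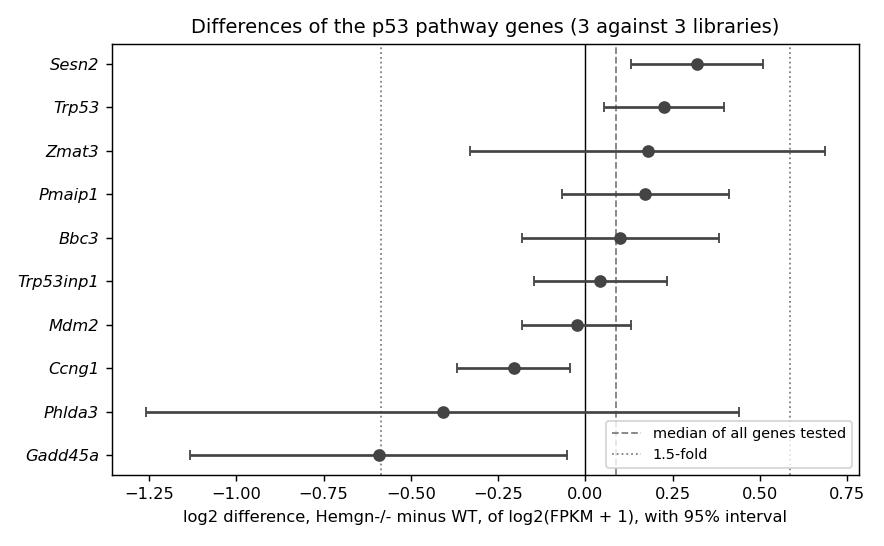
Log2 difference, Hemgn-/- minus WT, of the 10 p53 pathway genes (horizontal axis, log2(FPKM + 1) scale) with 95% limma intervals from 3 against 3 libraries, beside dashed and dotted lines at the median of all genes tested and at 1.5-fold. The intervals of Sesn2 and Trp53 lie above 0, those of Ccng1 and Gadd45a below 0, and the other 6 span 0.

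That median of all genes depended on the scaling. It was 0.09 in the deposited FPKM, 0.01 with median-ratio scaling or quantile normalization and 0.16 with the same FPKM total, so the differences of the 10 genes shift together with it. The split of all called genes moved too, from 600 higher and 287 lower to 348 and 384 with median-ratio scaling, 368 and 346 with quantile normalization and 1062 and 238 with the same FPKM total. Sesn2, Trp53, Zmat3, Pmaip1 and Bbc3 remained positive and Ccng1, Phlda3 and Gadd45a negative under each of these scalings, while Mdm2 and Trp53inp1 changed sign as given above.

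**Figure D3:**
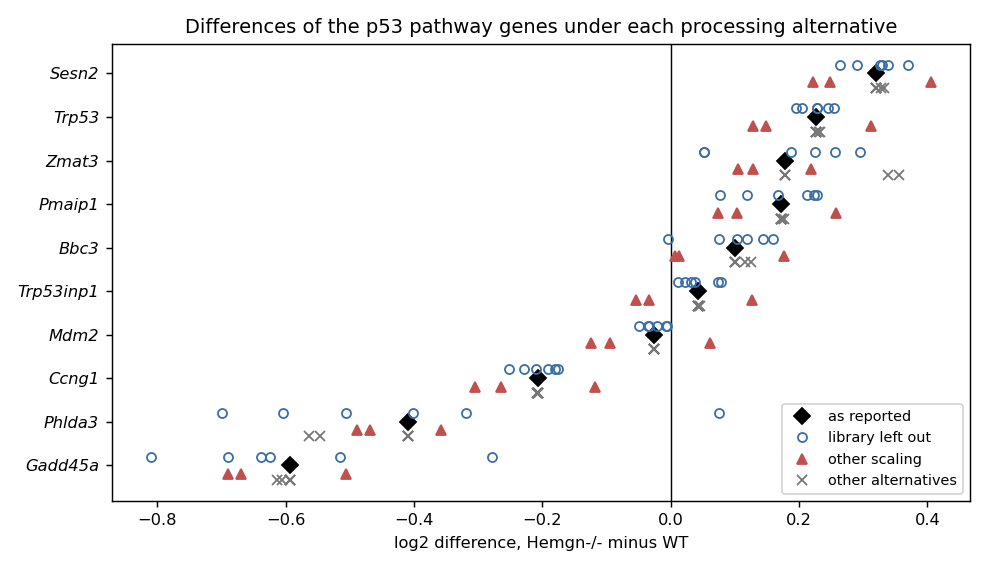
Log2 difference, Hemgn-/- minus WT (horizontal axis), of each of the 10 genes as reported (black diamonds), with each library left out (blue circles), under another scaling (red triangles) and under other alternatives (grey crosses). The points of Sesn2, Trp53, Zmat3 and Pmaip1 are all above 0 and those of Ccng1 and Gadd45a all below 0, and 1 circle of Phlda3, the fit without WT replicate 2, crosses to the positive side.

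Ratios within a library do not depend on how libraries were scaled, so each gene was also set against Trp53 in its own library. This measure was chosen after the values had been seen, and Trp53 itself is in every ratio. The exact two-sided permutation test of 3 against 3 libraries cannot go below p = 0.1, which it gave for each ratio below whose groups did not overlap. Mdm2 stood at 1.74 ± 0.0886 times Trp53 in WT and 1.46 ± 0.0878 times in Hemgn-/- libraries (SD, n = 3), with no overlap. The Ccng1 ratio was 2.89 ± 0.177 in WT and 2.13 ± 0.163 in Hemgn-/- libraries, again with no overlap. Trp53inp1 (0.649 and 0.568) and Gadd45a (1.42 and 0.760) were lower without overlap as well. The Sesn2 ratio, at 1.05 ± 0.0999 in WT and 1.12 ± 0.0142 in Hemgn-/- libraries, overlapped. The ratio of Bbc3 was 0.184 and 0.169, that of Pmaip1 0.913 and 0.880, that of Phlda3 0.0718 and 0.0330 and that of Zmat3 0.0253 and 0.0282, each with overlap. Of the 9 ratios, 4 were lower without overlap in Hemgn-/- libraries, 0 were higher without overlap, and 7 means were lower and 2 higher. Over all 13738 other genes tested, 20.6% of ratios to Trp53 were lower without overlap and 6.37% higher without overlap. The Trp53 values were higher in Hemgn-/- libraries without passing the test. A gene of even level, such as Mdm2 or Trp53inp1, therefore gives a lower ratio by construction.

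**Figure D4:**
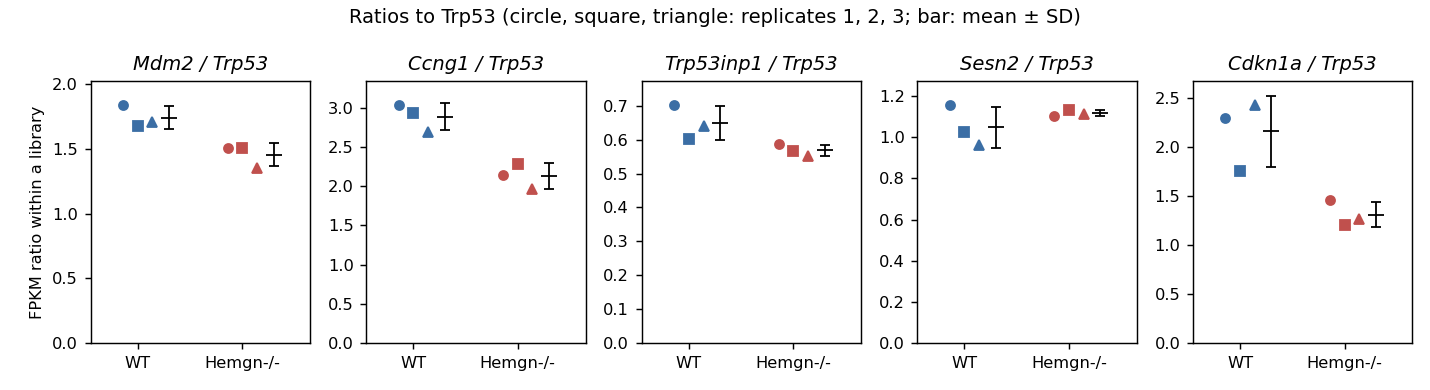
FPKM of Mdm2, Ccng1, Trp53inp1, Sesn2 and Cdkn1a divided by FPKM of Trp53 in the same library (vertical axes, from 0), for WT (blue) and Hemgn-/- (red), with circles, squares and triangles for replicates 1, 2 and 3 and a bar for the mean ± SD of 3 libraries. The Hemgn-/- points lie below the WT points for every gene shown except Sesn2, whose groups overlap.

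The wider p53 pathway was taken from lists of 97 other genes by role, of which 93 were in the table and 84 passed the filter. The 4 genes not found in the table were Cdkn2a, Trp73, Trp53aip1 and Sco2. Of the 84, 6 rose and 1 fell in Hemgn-/- libraries at an adjusted p under 0.05, and 77 did not pass, where 4.37% of all genes tested rose and 2.09% fell. At an unadjusted p under 0.05 there were 28 of the 84, of which 17 were higher and 11 lower, beside 21.4% of all genes. No overlap between genotypes was seen in 31 (21 above and 10 below), beside 27.4% of all genes. The lists were chosen with earlier results known, so these counts are a description. The median log2 difference was 0.02, beside 0.09 over all genes tested. These counts depended on the scaling, with 2 higher and 3 lower after median-ratio scaling, 2 and 2 after quantile normalization, and 9 and 0 with the same FPKM total.

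None of the 19 tested regulators of p53 passed, beside 6.46% of all genes, and none reached an unadjusted p under 0.05, beside 21.4% of all genes. The regulator with the highest level was Rchy1, a ubiquitin ligase for p53, with WT and Hemgn-/- means of 19.8 ± 2.33 and 22.7 ± 0.744 FPKM (log2 difference 0.20, limma adjusted p = 0.319). The median over the list was 0.07.

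None of the 9 cell cycle arrest genes passed either, and their median was -0.18. At an unadjusted p under 0.05 there were 4, of which 1 was higher and 3 lower, beside 21.4% of all genes (2057 higher and 887 lower). Cdkn1a read 72.6, 58.7 and 79.5 FPKM in WT and 55.6, 44.3 and 50.7 FPKM in Hemgn-/- libraries. All Hemgn-/- values were below all WT values, although Hemgn-/- replicate 1 and WT replicate 2 lay close. Cdkn1a was lower by a log2 difference of -0.47 (95% interval -0.76 to -0.19), a fold of 0.721 (limma adjusted p = 0.0648). It passed under 4 of 15 alternatives, and its adjusted p lay between 0.0227 (WT replicate 2 left out) and 0.175. Its ratio to Trp53 was 2.16 ± 0.360 in WT and 1.31 ± 0.130 in Hemgn-/- libraries, without overlap. Btg2, an antiproliferative gene and the most abundant of the list, averaged 951 ± 33.5 FPKM for WT and 1075 ± 85.5 FPKM for Hemgn-/- (log2 difference 0.18, limma adjusted p = 0.186). Neither gene therefore passed, and their differences had opposite signs.

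Of the 12 cell death genes 1 rose and 0 fell (4.37% and 2.09% of all genes), with a median of -0.05. At an unadjusted p under 0.05 in limma there were 6, of which 4 were higher and 2 lower, beside 21.4% of all genes. The death receptor gene Fas read 17.0, 16.1 and 16.2 FPKM in WT and 22.2, 23.7 and 21.2 FPKM in Hemgn-/- libraries, a 1.34-fold difference without overlap (limma adjusted p = 0.0235). Bid, which links death receptors to mitochondria, was the most abundant of the list, averaging 42.2 ± 3.11 FPKM for WT and 51.1 ± 4.52 FPKM for Hemgn-/-, without overlap (limma adjusted p = 0.138). Bax, the pore-forming effector, averaged 47.2 ± 3.08 FPKM for WT and 38.3 ± 2.87 FPKM for Hemgn-/-, also without overlap (log2 difference -0.29, limma adjusted p = 0.0909). Bax was named after its values were seen, because it was called lower with median-ratio scaling and quantile normalization.

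None of the 10 DNA repair genes passed, and their median was 0.11. At an unadjusted p under 0.05, 4 were higher and 0 lower, beside 21.4% of all genes (2057 higher and 887 lower). The most abundant, Rpa1, a subunit of the single-stranded DNA binding complex, was at 13.7 ± 0.919 and 13.6 ± 1.51 FPKM (limma adjusted p = 0.972). Among 15 stress and metabolism genes 1 rose and 0 fell (4.37% and 2.09% of all genes), with a median of 0.04. At an unadjusted p under 0.05 in limma, 1 was higher and 2 lower, beside 21.4% of all genes. Sesn1, the sestrin related to Sesn2, read 22.7, 20.03 and 17.8 FPKM in WT and 28.7, 28.6 and 28.1 FPKM in Hemgn-/- libraries, a 1.40-fold difference (limma adjusted p = 0.0247). The Hemgn-/- values of Sesn1 lay within 1 FPKM of each other and above every WT value. The remaining sestrin gene, Sesn3, named after its values were seen, was low, between 0.704 and 0.800 FPKM for WT and 0.943 to 1.27 FPKM for Hemgn-/- (log2 difference 0.28, limma adjusted p = 0.452). The most abundant gene of this list, Prkab1, a subunit of AMP-activated kinase, was at 81.4 ± 4.12 and 80.2 ± 5.40 FPKM (limma adjusted p = 0.906).

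The 19 genes listed as other targets gave 4 that rose and 1 that fell, with a median of 0.06, beside 6.46% of all genes called in either direction. Whether p53 controls each gene of this list in these cells was not tested. At an unadjusted p under 0.05 in limma there were 11, of which 7 were higher and 4 lower, beside 21.4% of all genes. Tap1, a peptide transporter of antigen presentation, had the largest rise at a log2 difference of 0.59, with 36.0 ± 0.586 and 54.7 ± 0.941 FPKM in WT and Hemgn-/- libraries (limma adjusted p = 0.00230), and was called under all 15 alternatives. Gadd45b rose 1.46-fold (36.3 ± 2.92 to 53.8 ± 8.53 FPKM, limma adjusted p = 0.0348), Rnf19b, a ubiquitin ligase, 1.40-fold (12.4 ± 0.218 to 17.8 ± 1.43 FPKM, limma adjusted p = 0.0188) and Pml, the scaffold of nuclear bodies, 1.39-fold (29.1 ± 4.49 to 40.7 ± 2.68 FPKM, limma adjusted p = 0.0485). Gadd45g fell, with a mean of 259 ± 17.9 FPKM for WT and 203 ± 12.7 FPKM for Hemgn-/- (fold 0.786, limma adjusted p = 0.0309). Of the called genes, at least Tap1, Pml and Fas are also known as interferon-induced genes. The 3 Gadd45 paralogs thus differed among themselves, with Gadd45b higher, Gadd45g lower, and Gadd45a lower without passing. Except for Tap1, each of the 7 called genes lost its call under some alternatives, and Fas had it under 4 of 15, Gadd45b and Pml under 5, Sesn1 under 6, Gadd45g under 8 and Rnf19b under 10.

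**Figure D5:**
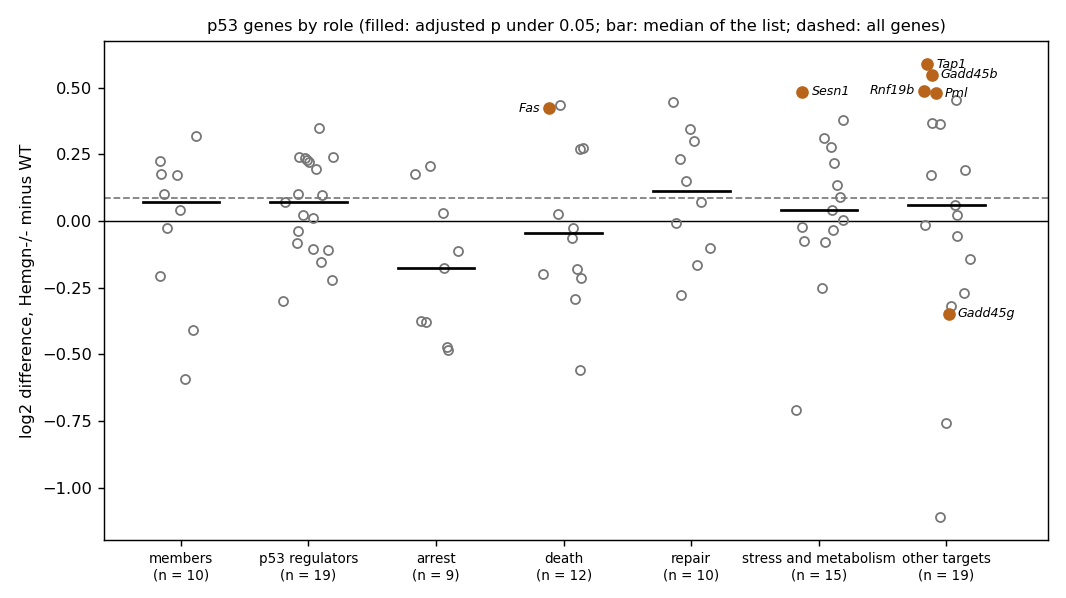
Log2 difference, Hemgn-/- minus WT (vertical axis), of the 10 genes and of 84 other p53 genes by role, with filled points for an adjusted p under 0.05, black bars for the median of each list and a dashed line for the median of all genes tested. The 7 filled points are Fas, Sesn1, Tap1, Gadd45b, Rnf19b and Pml above 0 and Gadd45g below 0, and none is in the list of the 10 genes.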

How the data were processed

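The authors deposited 1 table of FPKM per gene and library, with 0 columns left unmapped. Per the labels, the submitters' processing notes name HISAT2 2.1.0, Bowtie2 2.2.3, TopHat2, HTSeq 0.6.0 and GRCm38 without their roles. Labels and methods differ on the library kit (TruSeq or Smart-Seq2, which amplifies cDNA). The methods state 3 biological replicates, and no batch is labelled. Ensembl identifiers were matched to GENCODE M21 (24921 of 24965 genes). Of 13486 genes that never exceeded 100 fragments, 95.7% gave whole fragments (within 0.05) in all 6, which recovered the depth. Counting precision covers counting error only.

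The 13739 genes above 1 FPKM in any library were tested as log2(FPKM + 1) with limma 3.58.1 (R 4.3.3, eBayes with a trend, no covariate), tested on simulated data. Alternatives were a pseudocount of 0.1, 2 other filters, 3 other scalings, no trend, voom on recovered fragments, the replicate number as a block and each library left out. Same-numbered libraries did not deviate together (r from -0.04 to 0.01). Genes named were Hemgn, the 10 genes, Cdkn1a, other p53 genes with an adjusted p under 0.05 (at most the 15 with the smallest p) and the most abundant of each role list, with exceptions stated. The genes and lists were chosen with earlier results of these data known. Python 3.11.15 (numpy 2.4.6, pandas 2.3.3, matplotlib 3.10.9) served for the rest.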

Additional observations from a re-analysis of the deposited data

How the results depend on the processing

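Of the 10 p53 pathway genes, 0 were called in the deposited FPKM, 1 with a mean FPKM of at least 1 (Sesn2), 1 with median-ratio scaling (Ccng1), 2 with the same FPKM total (Sesn2 and Trp53) and 1 with limma voom (Sesn2), and 0 with every library left out in turn and under the other alternatives. Of the other p53 genes, 7 were called, against 3 with no filter on low values, 4 with quantile normalization, 1 without a trend and 1 to 5 with 1 library left out (WT replicates 1 to 3 gave 3, 5 and 1, and Hemgn-/- replicates 1 to 3 gave 4, 2 and 1). Over all genes, 887 were called, against 466 with no filter, 390 without a trend and 373 to 688 with 1 library left out, which leaves fewer samples (WT replicates 1 to 3 gave 470, 688 and 494, and Hemgn-/- replicates 1 to 3 gave 635, 525 and 373). Genes at an unadjusted p under 0.05 and 1.5-fold numbered 939, and 1412 with voom, which called 1065 genes by adjusted p. The sign of the difference turned in 6 genes. That of Mdm2 was 0.062 with the same FPKM total, and that of Trp53inp1 -0.053 with median-ratio scaling and -0.034 with quantile normalization. Those of Rpa1 and Prkab1 were 0.074 and 0.066 with the same FPKM total. With single libraries left out, the log2 difference ranged from -0.0046 (WT replicate 3) to 0.16 in Bbc3, from -0.70 to 0.075 (WT replicate 2) in Phlda3, from -0.071 to 0.076 in Rpa1, positive for WT replicate 1, WT replicate 3 or Hemgn-/- replicate 2, and from -0.074 to 0.019 in Prkab1, positive for WT replicate 3 or Hemgn-/- replicate 2. Over the single genes named, 284 alternatives kept direction and side of the threshold, 54 lost a call, 9 gained one and 12 turned the sign. The numbers do not pair the libraries. With the replicate number as a block 636 genes were called, 0 of them among the 10, and 3 other p53 genes were higher and 2 lower. Beyond the scaling and the left-out library themselves, the cause of these changes was not tested. Phlda3 and Zmat3 had 42 to 432 fragments a library and wide spread between libraries.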
